A study of Paralichthys olivaceus with 22 samples.

Results

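In the kidney of the Japanese flounder (Paralichthys olivaceus), 45 of 14052 contig-named features on a custom array were selected because their level lay well above the PBS controls at both 6 h and 12 h after an Edwardsiella tarda preparation. The same features stayed under a set bound after a Streptococcus iniae preparation. Each feature is a probe for an assembled flounder contig, named by the letters JFC and a number, and the shared ending of these names (_1_code) is left out here. The files pair the contigs with no gene names and 0 of the names on the array matched the RefSeq gene table used, so the members are described by contig and no role is given to any of them. For the same reason the tissue label was not checked against marker genes.

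The labels describe fish that received E. tarda FKC, S. iniae FKC or PBS, with total RNA of the kidney taken 6 h or 12 h later. FKC is the labels' own abbreviation for both bacterial preparations, and no strain, dose or age of the fish is given in the sources used here. Each FKC group had 3 arrays at 6 h and 4 at 12 h, and each PBS group had 4 arrays, which makes 22 arrays with 1 sample each. The labels number the samples and do not give the fish behind each number, so the p-values below cover the spread among these arrays, and some of it may be technical.

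E. tarda is a Gram-negative bacterium and S. iniae a Gram-positive one, and both are pathogens of farmed flounder. The kidney of bony fish holds blood-forming and immune tissue and responds to bacteria. Gram-negative cells carry lipopolysaccharide in their outer membrane, and Gram-positive cells have a thick peptidoglycan wall with lipoteichoic acid, and vertebrate cells sense these surfaces partly through different receptors. Which of these components reached the tissue was not measured here.

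A level is the log2 processed signal of a probe minus the 75th percentile of its array, so that 0 is a signal at that percentile. Levels are compared between arrays for 1 probe, since the signals of different probes are not on a common scale. A change is a difference of group means of this level. The members are the features whose change against PBS of the same time was at least 1.5 after E. tarda FKC at both times and under 0.75 after S. iniae FKC at both times, with a signal well above background on all 7 E. tarda arrays. Of 273 features with such an E. tarda change at both times, 232 met the background bound. Of these 232, 45 are the members, 95 reached 0.75 after S. iniae FKC at both times, 71 did so at 12 h alone and 21 at 6 h alone. No feature met the bounds with the preparations exchanged. Fewer probes rose after S. iniae FKC at all. In the limma fit 1.04% were called higher at 6 h and 5.82% at 12 h, against 14.1% and 15.6% after E. tarda FKC. How many features reached 1.5 after S. iniae FKC at both times was not counted. The changes against PBS and the differences between the preparations below chose the members, so they are given as a description. Counts of limma calls on them stand beside the share over all probes to describe the members, were largely fixed by the selection, and nothing is read from them.

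**Figure D1:**
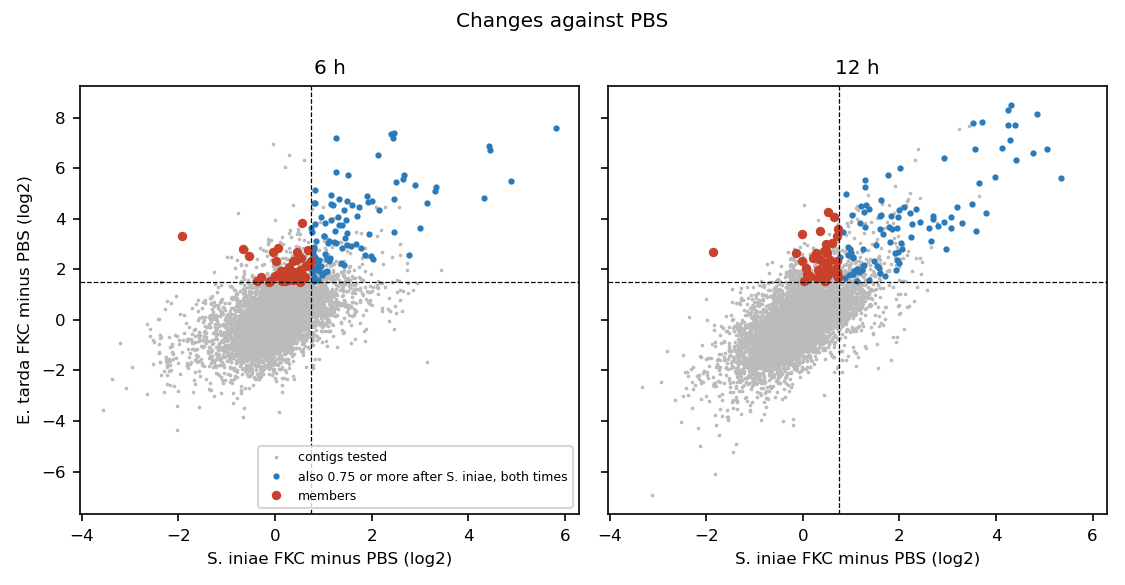
Change against PBS (log2) after E. tarda FKC on the vertical axis and after S. iniae FKC on the horizontal axis, at 6 h and at 12 h, with 1 point per contig feature and dashed lines at the bounds of 1.5 and 0.75. The 45 members (red) lie above 1.5 and left of 0.75 in both panels by selection. Of them, 1 lies far to the left at -1.94 and -1.87. The 95 features with the same E. tarda bounds that reached 0.75 after S. iniae FKC at both times (blue) extend higher.

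Slides limit what the changes can show. All FKC arrays of 6 h shared slide 1, all FKC arrays of 12 h slide 2, and all PBS arrays slide 3, so treatment against PBS and slide cannot be told apart. E. tarda and S. iniae arrays of 1 time shared a slide but lay in different rows of it. The 6 E1A spike-in probes that were well above background on every array, which measure added control RNA, moved between -0.95 and -0.00 in the E. tarda change at 6 h and between -0.31 and -0.17 at 12 h. Between the preparations they differed by -0.43 to -0.15 at 6 h and by -0.03 to 0.09 at 12 h. In whole tissue, fewer cells of a type and less RNA per cell cannot be told apart.

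The E. tarda change of the members ranged from 1.51 to 3.83 with a median of 1.89 at 6 h. It ranged from 1.52 to 4.26 with a median of 2.07 at 12 h. The 95 features that reached 0.75 after S. iniae FKC as well had larger E. tarda changes, with medians of 3.48 and 3.73, so the members were not the features with the largest E. tarda changes. Over all 14052 features the medians were -0.03 and -0.19. By selection, 44 of the 45 members were called higher after E. tarda FKC at 6 h in the limma fit over all 11066 probes tested, where 14.1% of all probes were, and 45 at 12 h, where 15.6% were. The E. tarda arrays lay wholly above the PBS arrays in 43 members at 6 h, as in 17.4% of all probes tested, and in 44 at 12 h, as in 15.3%.

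The exception at 6 h was JFC01848, whose E. tarda arrays stood at -1.13, -3.92 and -4.09 against PBS arrays between -5.79 and -3.76. A single E. tarda array was high there and the other 2 overlapped the controls, so its place among the members at 6 h rests on that array. JFC01848 was also the 1 member that overlapped PBS at 12 h, with a PBS array at -2.55 and an E. tarda array at -2.74. It was well above background on 1 of 4 PBS arrays at each time. JFC17218 also overlapped at 6 h, through 1 PBS array at -2.40, while its E. tarda arrays lay between -2.58 and -1.52.

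After S. iniae FKC the changes of the members against PBS were under 0.75 by selection, and most were above 0. Not every member overlapped PBS. In JFC03422 at 6 h the S. iniae arrays, at 0.06 to 0.82, lay wholly above the PBS arrays, at -0.39 to -0.01. The same held at 6 h in JFC03571, JFC01716, JFC16552 and JFC10623 and at 12 h in JFC13445, JFC16552 and JFC10623, among others. The members without overlap of S. iniae and PBS arrays were not counted, and neither was the share of all probes. The S. iniae change had a median of 0.29 at 6 h, with 36 of 45 members above 0, and a median of 0.45 at 12 h, with 41 above 0. Over all 14052 features the medians were -0.05 and -0.17. At 6 h, 0 members were called higher by limma, where 1.04% of all probes were, and 1 was called lower, where 0.551% were, and 8 had an unadjusted p under 0.05, as did 13.8% of all probes. At 12 h, 4 were called higher (JFC13445, JFC11920, JFC03309 and JFC11082), where 5.82% of all probes were, and 1 lower, where 5.32% were, and 21 had an unadjusted p under 0.05, as did 25.4% of all probes. The bound of 0.75 limits a rise after S. iniae FKC, does not set the change at 0, and does not limit a fall. Both preparations were set against the same PBS arrays, so the lean above 0 is not independent of the selection.

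All calls after S. iniae FKC except that of JFC07148 at 12 h depended on single arrays. The 1 call at 6 h, that of JFC07148, was lost without S. iniae replicate 1, S. iniae replicate 3 or PBS replicate 3 of that time, which left 0, and in a fit of the compared groups alone. With normexp and quantile normalization that call was also lost, and 1 other member was called higher. The call of JFC07148 at 12 h was kept without each array in turn and under every alternative run. The 5 calls at 12 h became this 1 without S. iniae replicate 2, PBS replicate 1 or PBS replicate 3 of that time, and 2 without PBS replicate 4. They became 3 without S. iniae replicate 3 of 12 h, E. tarda replicate 4 of 12 h or PBS replicate 3 of 6 h, and 8 without S. iniae replicate 1 of 12 h. Over all probes tested, the 1233 calls at 12 h also moved, to between 724 and 1440 when 1 array was left out. S. iniae replicate 2 of 12 h was the highest array of its group in 27 of the 45 members, against 25.3% of all probes tested. Without it the median S. iniae change at 12 h was 0.33 and 38 members lay above 0.

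Set directly against S. iniae FKC on the same slide, the members were higher after E. tarda FKC by 0.98 to 5.24 at 6 h and by 0.97 to 4.56 at 12 h. The bounds force a difference over 0.75 at both times, and with it limma called 42 members at 6 h, where 7.74% of all probes were higher, and 44 at 12 h, where 9.45% were. The E. tarda arrays lay wholly above the S. iniae arrays in all 45 members at 6 h, as in 15.7% of all probes tested, and in 42 at 12 h, as in 10.2%. In the other 3, JFC17218, JFC17540 and JFC07441, at least 1 array of each group overlapped at 12 h. In JFC07441 the S. iniae arrays of 12 h were spread from -1.35 to 0.73, and the array at 0.73 reached the lowest E. tarda array at 0.70.

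**Figure D2:**
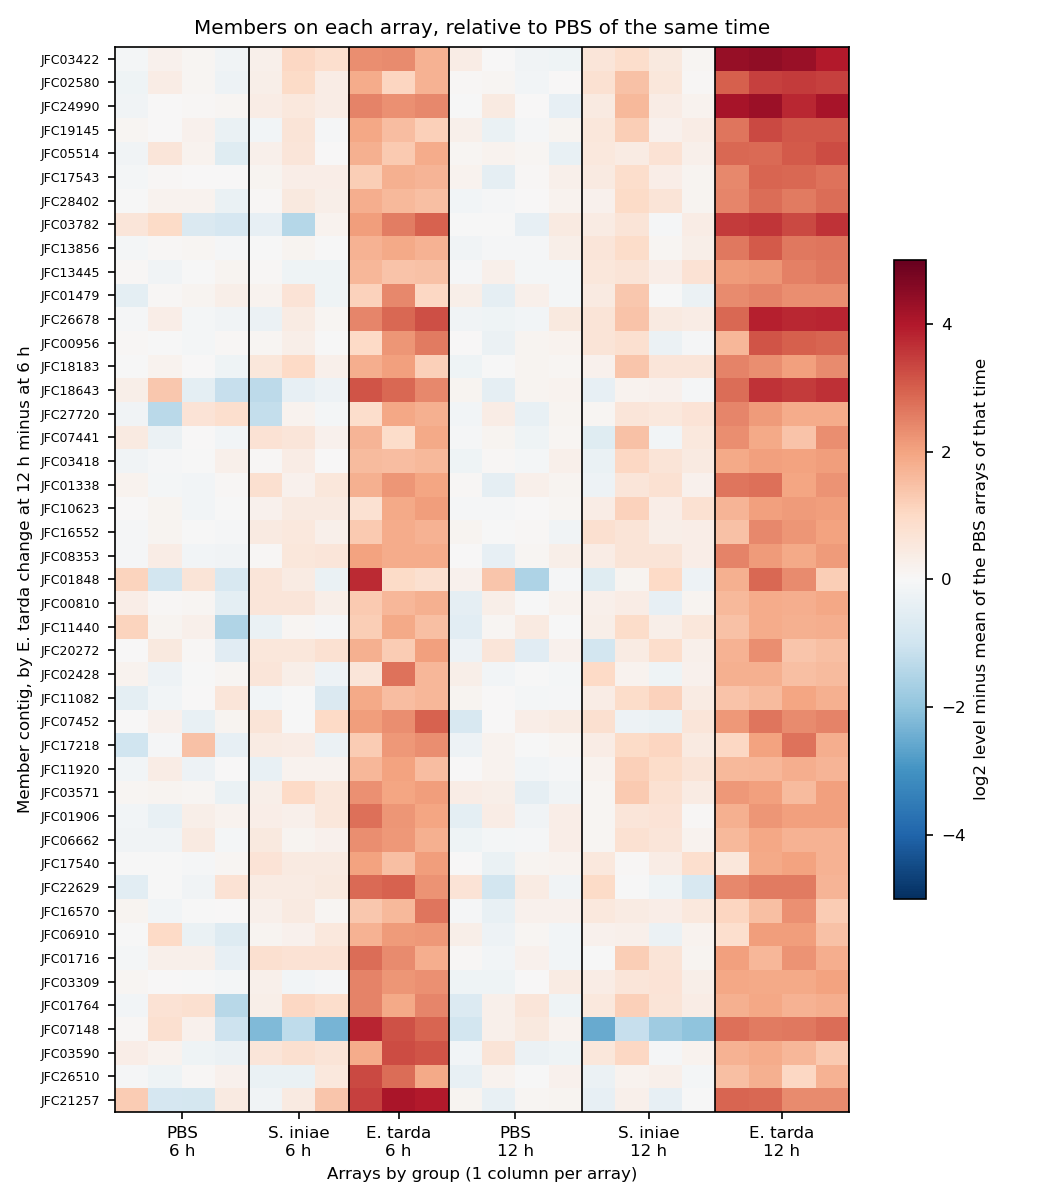
Level of each of the 45 members on each of the 22 arrays minus the mean of the time-matched PBS arrays (log2, colour), with 1 row per contig, ordered by the difference of the E. tarda change between the times, and 1 column per array grouped by treatment and time. The E. tarda columns are high in nearly all contigs, the S. iniae columns are mostly pale with JFC07148 blue, and at the top of the plot the 12 h E. tarda columns are darker than those of 6 h.

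The member with the highest smaller value of the E. tarda changes at 6 h and 12 h was JFC26678. Its E. tarda arrays stood at -1.12, -0.69 and -0.34 at 6 h and at -0.99, 0.03, -0.06 and -0.03 at 12 h. Its PBS arrays stood at -3.63, -3.23, -3.65 and -3.75 at 6 h and at -4.00, -4.07, -3.96 and -3.35 at 12 h. Its S. iniae arrays stood at -3.85, -3.17 and -3.48 at 6 h and at -3.21, -2.41, -3.40 and -3.46 at 12 h. The E. tarda arrays were far above all others at both times, and the S. iniae arrays overlapped PBS at both times, with replicate 2 of 12 h above the rest of its group. The change was 2.85 at 6 h and 3.58 at 12 h after E. tarda FKC, against 0.06 and 0.73 after S. iniae FKC. JFC26678 was not well above background on any PBS array of 12 h, so its 12 h E. tarda level is given as at least 9.48-fold higher than PBS. The bound sets the dim group at the lowest signal well above background on each array, or at the probe's own signal where that is higher. A probe can lie above that lowest signal and still not be well above background, so the bounds given here and below are approximate.

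JFC18643 showed a contrast of the same kind with less signal over background. Its E. tarda arrays lay at -1.66, -1.93 and -2.42 at 6 h and from -2.89 to -2.02 at 12 h. Its PBS arrays ran from -5.95 to -3.46 at 6 h and from -6.12 to -5.51 at 12 h, and its S. iniae arrays between -6.14 and -5.07 over both times. No E. tarda array overlapped another group, while S. iniae and PBS overlapped. It was well above background on 1 of the 8 PBS arrays and on none of the S. iniae arrays, so only bounds hold: at least 2.31-fold over PBS at 12 h, and at least 6.15-fold and 2.72-fold over S. iniae FKC at 6 h and 12 h.

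JFC07148 was the member called lower after S. iniae FKC. Its PBS arrays stood at -0.77, -0.01, -0.62 and -1.86 at 6 h and at -0.62, 0.52, 0.79 and 0.45 at 12 h. Its E. tarda arrays stood at 2.998, 2.36 and 2.10 at 6 h and at 3.03, 2.87, 2.92 and 3.096 at 12 h. Its S. iniae arrays stood at -3.04, -2.08 and -3.14 at 6 h and at -2.25, -0.87, -1.48 and -1.72 at 12 h. The groups did not overlap at either time: every E. tarda array was above every PBS array, and every S. iniae array was below. The E. tarda change was 3.30 at 6 h and 2.69 at 12 h, and the S. iniae change was -1.94 and -1.87. The feature was well above background on all 22 arrays, and the preparations differed by 5.24 at 6 h and by 4.56 at 12 h.

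**Figure D3:**
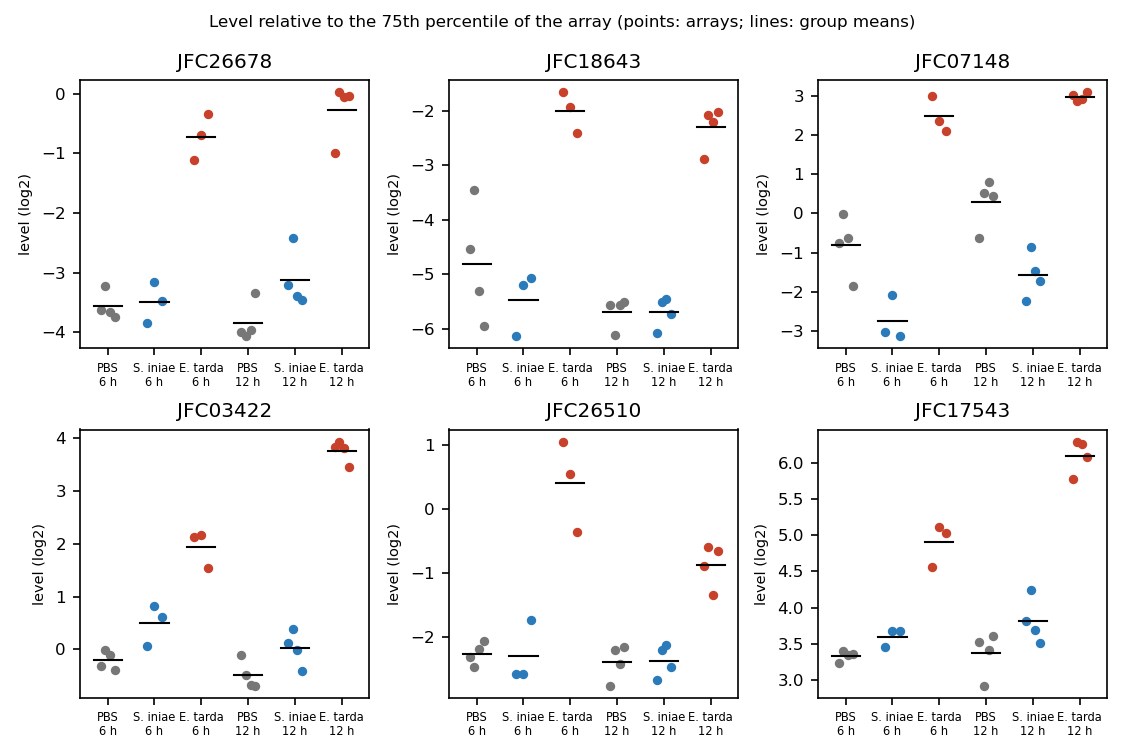
Level of 6 members on each array (log2 relative to the 75th percentile of the array), with points for arrays, lines for group means, and groups along the horizontal axis. In JFC07148 the S. iniae arrays lie below PBS. In the other 5 their means lie nearer to PBS than to E. tarda FKC, which the bounds of the selection fixed in advance. In JFC03422 the S. iniae arrays of 6 h lie wholly above PBS. Between the times the E. tarda arrays of JFC03422 and JFC17543 move up while those of JFC26510 move down.

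JFC17543 and JFC03418 were well above background on all 22 arrays. In JFC17543 the PBS arrays lay between 2.92 and 3.60, the S. iniae arrays between 3.45 and 4.25 and the E. tarda arrays between 4.57 and 6.29, so the E. tarda arrays stood clear of all others. JFC03418 went from a mean of 2.65 ± 0.19 (SD, n = 4) to 4.22 ± 0.03 (SD, n = 3) at 6 h and from 2.77 ± 0.21 (SD, n = 4) to 4.78 ± 0.08 (SD, n = 4) at 12 h. JFC01338 was not well above background on any PBS or S. iniae array. Its E. tarda level was at least 1.11-fold over PBS at 6 h and at least 1.38-fold at 12 h.

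Of the 45 members, 29 were well above background on all 22 arrays. On the PBS arrays of 6 h, 34 were so on every array and 3 on none, and on those of 12 h 29 were so on every array and 6 on none. After S. iniae FKC 39 at 6 h and 38 at 12 h were well above background on every array, and 3 and 4 on none. The S. iniae and PBS groups were therefore measured, and not only bounded, in most members. In the 6 members on no PBS array of 12 h, the E. tarda change at 12 h is only bounded. It was at least 3.245 in JFC26678 and 3.33 in JFC24990. The bound was under 1.5 in JFC18643 (1.21), JFC21257 (0.71), JFC01338 (0.46) and JFC20272 (0.35). The place of those under 1.5 among the members rests on PBS signals not well above background.

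The selection set the same lower bound on the E. tarda change at both times, so it did not fix whether that change grew or shrank. It did leave out features that lay under the bound at either time, which shapes the difference between the times. All probes had no such bounds, so their shares and median are given beside the members as a description, and nothing is read from the contrast. The sets of 95 and 71 features met the same E. tarda bounds as the members. The difference of the change at 12 h minus that at 6 h had a median of 0.24 over the members, with 27 above 0 and 18 below, against a median of -0.08 over all probes tested. limma called 9 of 45 members as higher at 12 h, where 4.52% of all probes were, and 0 as lower, where 6.73% were, and 11 members had an unadjusted p under 0.05 in either direction, as did 27.6% of all probes. Among the 95 features that reached 0.75 after S. iniae FKC at both times, 7 were called higher and 6 lower, and among the 71 that did so at 12 h alone, 12 were called higher and 0 lower. The FKC arrays of 6 h and 12 h lay on different slides, and this difference cannot be told apart from one between slides. The spike-in probes moved between -0.25 and 0.63 in the same difference.

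JFC03422 had the largest fitted increase. Its E. tarda arrays stood at 2.12, 2.17 and 1.54 at 6 h and at 3.84, 3.94, 3.82 and 3.46 at 12 h. Its PBS arrays ran from -0.39 to -0.01 at 6 h and from -0.69 to -0.11 at 12 h, and its S. iniae arrays between 0.06 and 0.82 and between -0.41 and 0.39. The E. tarda arrays of 12 h were all above those of 6 h, with no such step in PBS or S. iniae arrays. The E. tarda change rose by 2.11 (SE 0.31, limma adjusted p = 0.000579) from 2.15 at 6 h to 4.26 at 12 h.

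JFC02580 followed with a rise of 1.77 (SE 0.37, limma adjusted p = 0.00635). Its E. tarda arrays stood at 1.79, 1.01 and 1.66 at 6 h and at 3.12, 3.57, 3.64 and 3.54 at 12 h, while its PBS arrays lay between -0.34 and 0.30 over both times. All E. tarda arrays of 12 h were above those of 6 h, and PBS stayed in a narrow range. JFC24990 rose by 1.69 (SE 0.36, limma adjusted p = 0.00639), with E. tarda arrays from -1.497 to -1.27 at 6 h and from -0.44 to 0.05 at 12 h. It was not well above background on any PBS array. Its own PBS signals of 6 h all lay above the lowest signal well above background, so no bound applies there. Its 5.21-fold over PBS at 6 h is the plain difference of means. At 12 h its E. tarda level was at least 10.1-fold over PBS. Part of its difference between the times comes from PBS values without a measured size.

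The other 6 members called were JFC19145 (1.4996), JFC05514 (1.36), JFC17543 (1.16), JFC28402 (0.99), JFC13856 (0.96) and JFC13445 (0.85), with limma adjusted p between 0.0112 and 0.0231. In JFC19145 the E. tarda arrays ran from 3.20 to 3.93 at 6 h and from 4.93 to 5.54 at 12 h, without overlap. The calls of JFC28402 and JFC13445 were lost with quantile normalization (limma adjusted p = 0.0558 and 0.0658), JFC13445 also with normexp and quantile normalization (limma adjusted p = 0.224) and JFC28402 without E. tarda replicate 3 of 6 h (limma adjusted p = 0.0614). Of the 9, 8 were well above background on all arrays, against 21 of the other 36. How far signal over background bears on which members were called was not tested.

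At the other end stood JFC21257 and JFC26510, neither of which passed the test. In JFC21257 the E. tarda arrays lay at -1.55, -0.88 and -0.99 at 6 h and at -2.53, -2.55, -3.06 and -3.05 at 12 h, and the difference of the changes was -1.20 (SE 0.58, limma adjusted p = 0.184). Its PBS arrays of 6 h were spread from -5.86 to -3.70, and it was not well above background on any PBS array of 12 h or any S. iniae array. In JFC26510 the E. tarda arrays lay at 1.06, 0.55 and -0.36 at 6 h and at -0.89, -0.59, -1.34 and -0.65 at 12 h, and the difference was -1.15 (SE 0.39, limma adjusted p = 0.0647). Its PBS and S. iniae arrays lay between -2.76 and -1.73 at both times. In both features all E. tarda arrays of 12 h lay below those of 6 h.

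**Figure D4:**
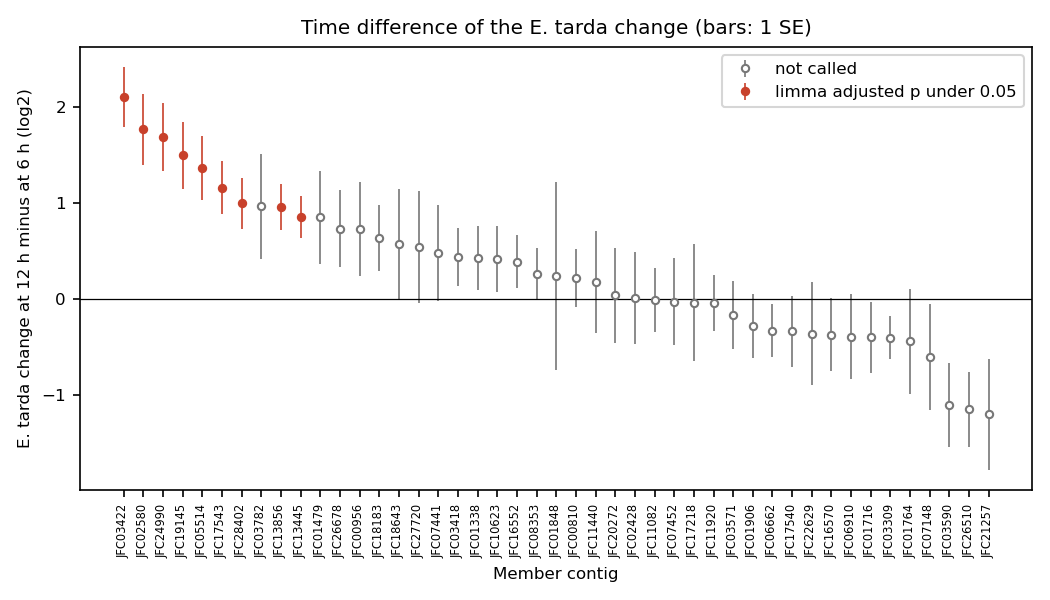
E. tarda change against PBS at 12 h minus that at 6 h (log2) for each of the 45 members, with bars of 1 SE, and filled points where the limma adjusted p was under 0.05. The 9 filled points lie between 0.85 and 2.11, and the lowest open point is JFC21257 at -1.20.

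E. tarda and S. iniae FKC were compared within a slide at each time, so the change of their difference from 6 h to 12 h holds no offset between slides. limma called 3 members as higher at 12 h, where 1.91% of all probes were, and 1 as lower, where 1.88% were. The selection bounded the difference between the preparations from below at both times, so these shares too are a description. JFC03422 moved from a difference of 1.45 at 6 h to 3.74 at 12 h, a rise of 2.30 (SE 0.32, limma adjusted p = 0.00167). JFC02580 rose by 1.59 (SE 0.38, limma adjusted p = 0.0265) and JFC24990 by 1.47 (SE 0.37, limma adjusted p = 0.0309). JFC24990 was well above background on 1 of its 4 S. iniae arrays of 12 h, so part of its rise comes from S. iniae values without a measured size. JFC03309 went the other way, from 2.31 to 1.43, and fell by 0.88 (SE 0.23, limma adjusted p = 0.0402).

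All spike-in probes moved upward in this difference, by 0.21 to 0.45. The preparations lay in different rows of both slides, and the part of the row in these differences was not tested. In JFC03309 the E. tarda arrays ran from -0.60 to -0.35 at 6 h and from -1.07 to -0.94 at 12 h, and the S. iniae arrays between -2.96 and -2.54 and between -2.64 and -2.25. The preparations thus lay closer at 12 h. The move of either preparation alone is between slides and cannot be told apart from slide. The count of 4 calls was 1 in a fit of the compared groups alone and without E. tarda or S. iniae replicate 2 of 6 h. It was 2 without E. tarda replicate 2 or 4 of 12 h, S. iniae replicate 3 of 6 h or S. iniae replicate 3 of 12 h, and 8 with normexp and quantile normalization. JFC03422 kept its call in all these refits, and JFC03309 was called in none of those listed that left out an array. The call of JFC02580 was lost in the fit of the compared groups (limma adjusted p = 0.0917), when S. iniae replicate 2 of 6 h was left out (limma adjusted p = 0.0823) and when E. tarda replicate 2 of 6 h was (limma adjusted p = 0.0756).

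The PBS arrays of the times shared a slide but lay in different rows of it. Their comparison was not itself a bound of the selection, but the same arrays were the controls in every bound. It is therefore not independent of the selection, and the counts are a description. limma called 0 of 45 members between PBS at 12 h and at 6 h, where 0.994% of all probes were, and 6 had an unadjusted p under 0.05, as did 11.0% of all probes. The largest fitted difference was that of JFC07148, higher at 12 h by 1.10 (SE 0.38, limma adjusted p = 0.242), and JFC13856 followed in the ranking by p at -0.45 (limma adjusted p = 0.28).

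Of the 4 members called higher after S. iniae FKC at 12 h, the 3 with the smallest p are given with their levels. JFC13445 stood at 0.88 ± 0.18 (SD, n = 4) after S. iniae FKC and 0.32 ± 0.17 (SD, n = 4) in PBS at 12 h, and at 2.69 ± 0.24 (SD, n = 4) after E. tarda FKC. JFC11920 stood at -1.73 ± 0.44 (SD, n = 4) and -2.45 ± 0.13 (SD, n = 4), and at -0.75 ± 0.08 (SD, n = 4) after E. tarda FKC. JFC03309 stood at -2.45 ± 0.19 (SD, n = 4) and -2.95 ± 0.30 (SD, n = 4), and at -1.03 ± 0.06 (SD, n = 4) after E. tarda FKC. In all 3 the S. iniae mean lay between those of PBS and E. tarda FKC, and nearer to PBS. The bounds of the selection and the call fixed that order in advance.

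The bounds of the selection cut through continuous values. Membership also moved with the processing, and not only near a bound. With normexp and quantile normalization few of the members met the bounds, as given in the last section. At 6 h the member nearest the E. tarda bound was JFC07441 at 1.508, and JFC01240 lay just outside at 1.499. At 12 h JFC26510 was inside at 1.52 and JFC21394 outside at 1.49. For the S. iniae bound JFC01716 was inside at 0.74 and JFC15837 outside at 0.77 at 6 h, and JFC26678 inside at 0.73 and JFC21837 outside at 0.75 at 12 h. Within 0.1 of a bound lay 11 members at the E. tarda bound of 6 h, 3 at that of 12 h, 4 at the S. iniae bound of 6 h and 9 at that of 12 h. A further 15 features met all bounds on the changes and missed the background bound alone, with E. tarda changes from 1.505 to 3.04 at 6 h and from 1.501 to 3.04 at 12 h. Of the 429 features with other names, 5 met the same bounds.

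The profiles of the leading members over all 22 arrays were set against 10731 contig features by Pearson correlation, as a description of features that share the same arrays and treatments. JFC26678 ran most like JFC13856, also a member (r = 0.979), and JFC06837 (r = 0.972), which had an S. iniae change of 0.88 at 12 h and so fell outside the bounds. JFC18643 ran most like JFC03272 (r = 0.933), whose E. tarda change of 1.46 at 6 h was just under the bound, and JFC26678 (r = 0.915). JFC07148 had no neighbour as close: JFC27054 reached an r of 0.879 with changes of 1.55 and 1.91 after E. tarda FKC and -0.30 and -0.20 after S. iniae FKC, and JFC10553 an r of 0.868.

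Averaged over the 45 members, each array's mean level lay between 0.51 and 0.92 on the E. tarda arrays, between -1.36 and -0.83 on the S. iniae arrays and between -1.67 and -1.39 on the PBS arrays. The highest S. iniae array was replicate 2 of 12 h. Among the E. tarda arrays of 12 h, replicate 1 was the lowest in 23 of 45 members, against 32.5% of all probes tested, and replicate 2 the highest in 20. The number of arrays limits the precision of all these values.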

How the data were processed

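Scanner files of 22 1-colour arrays and a table of processed values, both deposited by the authors, were used. Per the file headers, spot intensity was read with Agilent Feature Extraction 10.7.3.1, while the submitters' processing notes name version 9.5.3.1. Against the scanner values, the authors' deposited log2 table matched the level minus the probe's median over the PBS arrays of the same time, with 99.99% of values within 0.1 and 53.3% within 0.01. Being centred within each time, it served as an alternative without comparisons across times. Its column medians lay between -0.274 and 0.0274.

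From the log2 processed signal the 75th percentile of the array was subtracted, and spots were averaged by probe. Control spots (536 of 15197) were left out and no spot was saturated. Spots with outlier marks, none of them on a member, were left out of the fit, which left 94 missing values. The 75th percentile ranged from 209 to 470, and each array had 8084 to 10666 of its 14481 probes well above background.

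A model with 1 mean for each of 6 groups was fitted with limma 3.58.1 (lmFit, eBayes) in R 4.3.3 to the 11066 probes well above background on at least 3 arrays, and checked on simulated data. A probe was called where its adjusted p (Benjamini-Hochberg, over all probes of a comparison) was under 0.05. The members and the rule for naming them were chosen with earlier results of these data known. The rule names members by the smaller E. tarda change, the smaller difference from S. iniae FKC, the change between times, the PBS level, the bounds and the calls after S. iniae FKC, and likeness for the leading 3. JFC01848, JFC17218, JFC17540, JFC11082 and the other members called between the times were named for the counts they belong to, after their values were seen. So were JFC03571, JFC16552 and JFC10623, as examples without overlap of S. iniae and PBS arrays, and JFC20272, for its bound. Gene lists and cell type markers could not be used without gene names. Alternatives were the authors' values, scaling to the median, quantile normalization with and without normexp (offset 50), a filter for all arrays and none, and stricter bounds. Others were eBayes with trend and robust, a fit of the compared groups, outlier spots left out, a replicate block, and leaving out each array.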

Additional observations from a re-analysis of the deposited data

Results flagged for a closer look

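The 68 combinations joined each group of 4 arrays with 1 of the 16 members under the naming rule or with the mean of all members. In 5 of them the gap of the highest or lowest array divided by the range of the group passed Dixon's critical value of 0.829. Chance passes it in about 1 in 20. In JFC26678, E. tarda replicate 1 of 12 h was the lowest (0.914) and PBS replicate 4 of 12 h the highest (0.855). PBS replicate 2 of 12 h was the lowest in JFC18643 (0.913) and JFC21257 (0.875), where no PBS array of 12 h was well above background, and the highest in JFC13445 (0.937).

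Some of the 16 members under the naming rule had effects that differed between 6 h and 12 h by the limma test of the difference itself. For the E. tarda change these were JFC03422 (2.11), JFC02580 (1.77), JFC17543 (1.16) and JFC13445 (0.85), and all 4 were larger at 12 h. For the difference between the preparations they were JFC03422 (2.30), JFC02580 (1.59) and JFC03309 (-0.88). Members called outside the naming rule, JFC24990 among them, are given above. The E. tarda values cannot be told apart from slide, and the values between the preparations were taken within slides.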

How the results depend on the processing

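The selection gave 45 members, 41 with quantile normalization (39 shared), 45 with the authors' values (44 shared) and 45 with outlier spots left out, but 29 with arrays scaled to their median (29 shared) and 5 with stricter bounds (2 and 0.5). With normexp (offset 50) and quantile normalization it gave 14 (4 shared), and the reason for this drop was not tested. Leaving out 1 array gave 39 to 54. Where only features well above background on all arrays were tested, 29 members remained in the test, and 29 were called for E. tarda FKC at 6 h, at 12 h and against S. iniae FKC at 12 h. Of all 6779 probes tested there, 990, 1254 and 745 were called higher. The calls of the members were largely fixed by the selection. For S. iniae FKC the 1 call at 6 h became 0 in the compared groups alone, where calls over all probes went from 176 to 34. The 5 calls at 12 h became 2 with normexp and quantile normalization and 13 scaled to the median. They became 3 with no filter and 1 in the compared groups alone. Over all probes the 1233 calls of 11066 became 957, 1273, 1010 of 14481 and 1051 in the same order. Scaled to the median, calls higher over all probes went from 644 to 916 and calls lower from 589 to 357. The 4 calls for the difference between preparations over time became 8 with normexp and quantile normalization and 1 in the compared groups alone. Over all probes these went from 419 to 605 and 199. Scaling to the median moved the median change of all tested probes. At 12 h it went from -0.12 to -0.00 for E. tarda FKC and from -0.09 to 0.05 for S. iniae FKC. At 6 h it went from -0.01 to -0.08 for E. tarda FKC and from -0.00 to -0.01 for S. iniae FKC. For the E. tarda difference between times it went from -0.08 to 0.10. The 9 calls among the members stayed at 9 there, while calls higher over all probes went from 500 to 733. The causes were not tested. Leaving out 1 array gave 43 to 45 calls for E. tarda FKC at 6 h and 44 to 45 at 12 h, 0 to 1 and 1 to 8 for S. iniae FKC, 36 to 43 and 41 to 45 between preparations, 9 to 10 for the E. tarda difference between times, 1 to 5 for that between preparations and 0 to 0 for PBS. Arrays of the same number deviated together with correlations of -0.17 to 0.28 across probes, so the numbers were not taken as pairs. With the replicate block the counts for the E. tarda difference between times, that between preparations and PBS were 9, 3 and 0, with 4 for S. iniae FKC at 12 h, where the call of JFC03309 was lost. Over the named members, 350 values kept their side of the threshold, 25 lost the call and 6 gained it. None changed direction with a call in either fit, and a change of sign without a call was counted as kept. Many of these values were bounded by the selection, and the leave-one-out refits entered only through their extremes. The counts are therefore a description and do not measure robustness. A slide block was not run, because each group lies on 1 slide. Depth is limited by signal over background in the 16 members not above it on every array.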
